A study of Mus musculus with 40 samples.

Results

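Kinesins are motor proteins that use ATP to walk along microtubules, to slide them or to take them apart. The genes described here are those whose symbol in the count table is Kif followed by a number or by c and a number, with its letter. There are 42 such rows among the 55492 genes of the table, and 34 of them had 20 or more counts summed over all libraries, out of 16174 genes of the table that did. By what the motors are known to do they were sorted into 15 spindle kinesins (13 with 20 or more counts), 18 transport kinesins (15) and 9 kinesins of cilia and other roles (6).

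RNA was measured in single spermatocytes from the testis of C57BL/6J mice aged 6 to 8 weeks, with 20 libraries named Metaphase I and 20 named Pachytene, each made from 1 cell. Per the labels, pachytene spermatocytes were separated by centrifugal elutriation, and exposure to 4 µM okadaic acid, an inhibitor of the protein phosphatases PP1 and PP2A, for 5 h in culture brought cells to metaphase I. That treatment text stands on all 40 libraries, and it does not say whether the Pachytene cells were also cultured, so stage, drug and culture cannot be told apart. The labels name no animal or culture, so each group is 1 sample, nothing was tested, and intervals cover counting error only.

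At metaphase of the first meiotic division the paired homologous chromosomes are held on a bipolar spindle, which kinesins push apart, focus and shorten at the microtubule ends. At pachytene the homologues are fully paired and no spindle is present. Other kinesins carry cargo along microtubules or work in cilia and in the sperm tail, which is built later, in spermatids. Many cell-cycle genes carry a cell-cycle genes homology region (CHR) near their start, often with a CCAAT box at a short distance before it. The CHR is known for keeping such genes off in resting cells and for their rise in dividing cells, and the CCAAT box binds the activator NF-Y.

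RefSeq promoters on the GRCm38.p6 build, each from 250 bases before to 50 after an annotated start, were found for 33 of the 42 kinesins, with 37 promoters in all. Kif13b, Kif19a, Kif20a, Kif21b, Kif28, Kif5a, Kif5b, Kifc2 and Kifc3 were not matched. Each window was searched on both strands for the CHR, spelled TTTGAA or TTCGAA, for the CCAAT box, spelled CCAAT, and for the MYB core AACNG, with every match counted, overlapping ones included. The stretches below run from 70 bases before the start to 30 after it, with CHR and CCAAT matches in capitals (TTCAAA and ATTGG are their reverse-strand spellings). The first 5 are spindle kinesins with a CHR close to the start, and the last 3 are a spindle kinesin and a pair of transport kinesins without one. The RefSeq start used for Kif17 lies inside the span the count table gives for that gene.
Kif11, chr19:37376312-37376411, plus strand: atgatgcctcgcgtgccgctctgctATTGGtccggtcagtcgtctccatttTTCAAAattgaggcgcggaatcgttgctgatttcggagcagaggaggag
Kif15, chr9:122951011-122951110, plus strand: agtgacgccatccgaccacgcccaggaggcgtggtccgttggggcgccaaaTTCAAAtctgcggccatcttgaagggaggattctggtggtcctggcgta
Kif22, chr7:127042391-127042490, minus strand: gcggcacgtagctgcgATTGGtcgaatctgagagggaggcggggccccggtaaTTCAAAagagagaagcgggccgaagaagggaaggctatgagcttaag
Kif23, chr9:61946770-61946869, minus strand: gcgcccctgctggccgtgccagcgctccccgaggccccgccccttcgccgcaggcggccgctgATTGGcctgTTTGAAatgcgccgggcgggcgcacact
Kif20b, chr19:34922288-34922387, plus strand: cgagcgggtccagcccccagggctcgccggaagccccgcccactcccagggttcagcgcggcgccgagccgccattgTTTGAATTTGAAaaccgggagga
Kif2b, chr11:91577526-91577625, minus strand: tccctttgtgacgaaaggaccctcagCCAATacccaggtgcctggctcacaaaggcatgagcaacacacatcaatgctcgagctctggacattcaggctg
Kif3a, chr11:53567299-53567398, plus strand: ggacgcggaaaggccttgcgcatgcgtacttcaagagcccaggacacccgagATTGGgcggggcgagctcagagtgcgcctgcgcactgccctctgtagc
Kif17, chr4:138262181-138262280, plus strand: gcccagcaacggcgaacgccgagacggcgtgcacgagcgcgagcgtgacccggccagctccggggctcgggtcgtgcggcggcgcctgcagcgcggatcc

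A CHR was found in 11 of 15 spindle kinesin promoters (73.3%), in 1 of 13 transport promoters (7.69%) and in 3 of 9 of the cilia and other class (33.3%), beside 19.2% of all 32851 promoters. Spindle promoters held a CHR and a CCAAT box together in 53.3%, no transport promoter held both, and 7.52% of all promoters did. A CCAAT box, with or without a CHR, was in 60% of spindle promoters, 30.8% of transport promoters and 37.4% of all promoters. The MYB core, a short motif, was in 80% of spindle and 80.3% of all promoters. Kif11, Kif15, Kif22, Kif23, Kif20b, Kif18b and Kifc1 had a CHR that began between 19 bases before and 13 bases after the start. So did Kif26b, of the cilia and other class. The spindle kinesins Kif18a and Kif2a had no CHR in the window searched. A match describes letters and does not show binding, and a window without one says nothing of the factor.

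**Figure D1:**
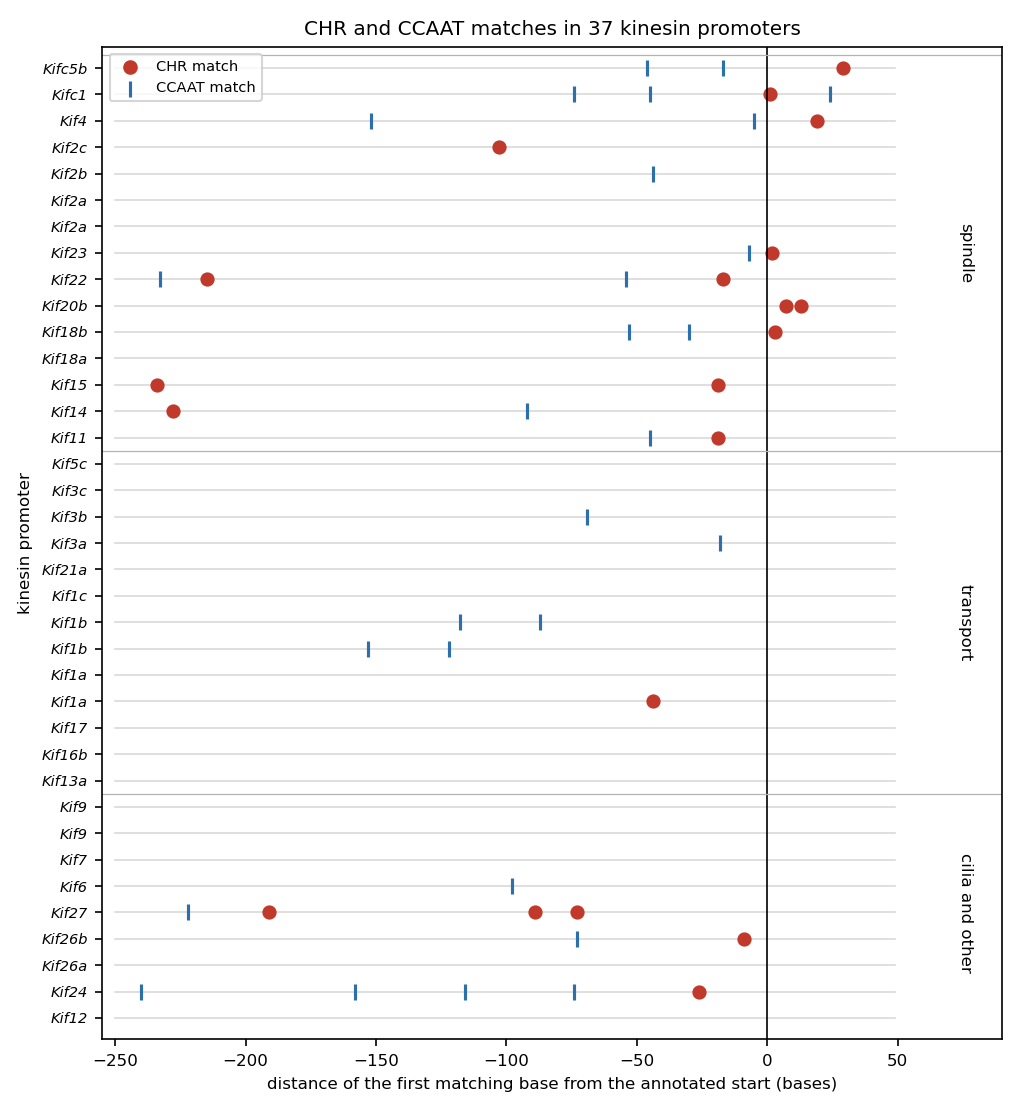
CHR matches (red dots) and CCAAT matches (blue ticks) in the 37 RefSeq promoters of kinesins, plotted by the distance of the first matching base from the annotated start in bases, with the promoters grouped as spindle, transport, and cilia and other; a gene with more than 1 start has a line for each. Of the 15 spindle promoters 11 hold a CHR, most of them near the start, against 1 of 13 transport promoters.

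The libraries held 198117 to 1497037 counts in Metaphase I (13709617 in all) and 165048 to 2325564 in Pachytene (17663240). All 12 spermatocyte markers examined were detected, and their summed level per cell had a median of 21599 CPM (counts divided by the library total and multiplied by 1000000) in Metaphase I (9793 to 23809) and 21037 in Pachytene (14811 to 25412). Most of that sum was 1 gene, Ldhc, with 231274 of 279876 counts in Metaphase I and 308462 of 360257 in Pachytene. Msh4 was seen in 15 Metaphase I and 13 Pachytene cells, and the other spermatocyte markers in all 40. In 8 libraries X-linked genes, which are silent at pachytene, held over 0.3% of counts: Metaphase I replicates 3, 7, 17 and 19 and Pachytene replicates 2, 3, 7 and 19. The 7 of these other than Metaphase I 19 had 1411 to 6775 CPM summed over 12 spermatid markers, against a median of 42.4 and a maximum of 1381 CPM (Pachytene 5) in the 32 libraries below that share. Metaphase I 19 had 13530 CPM of 12 Sertoli cell markers, where no other library had over 211 CPM, and the lowest spermatocyte marker sum of its group. Clu alone held 7617 of the 9866 Sertoli marker counts of Metaphase I. The Sertoli markers Gata4, Rhox5 and Amh were at 0 in all 40 libraries, and every spermatid marker was detected. Below, gene positions are those of the deposited table (GRCm38) and the 8 are called the X-linked libraries. Many results that move with them, though not all, are given with and without them.

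Kinesin RNA as a whole was at about the same level in both groups. Counts of all 42 genes together came to 1794 CPM in the median Metaphase I cell (946 to 2594) and 1585 CPM in the median Pachytene cell (1058 to 2488). Spindle kinesins held 45.6% of all kinesin counts, transport kinesins 32% and the cilia and other class 22.3%. A few genes carried most of it, since the 3 with the most counts (Kif9, Kif2a and Kif3a) held 40.1% and the first 6 held 64.3%. In 8 of the 34 measured kinesins every one of the 40 cells had a count, and 7 were found in fewer than 20 cells.

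Per kilobase of exon, the highest levels over both groups were those of Kif2b (56.2 CPM per kb), Kif9 (54.9), Kif3a (50.4), Kif2a (36.0) and Kif3b (30.3). A second tier was formed by Kif27 (13.7), Kif20b (13.5) and Kif2c (12.9 CPM per kb), and Kif23 (6.47), Kif15 (6.30) and Kif22 (6.04) followed. Except for Kif2b, which came from few cells as described further on, the quartiles of neighbours within each tier overlap between cells, so their order is not firm. These libraries keep 3' ends, so a level per kilobase of exon understates long transcripts.

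Between the groups most kinesins differed little. With counts summed over the cells of a group, 4 of 34 kinesins were over 2-fold higher in Metaphase I (Kif21a, Kif1a, Kif5b and Kif20a), where 8.49% of all measured genes were. Only Kif2b was over 2-fold lower, 1 of 34, where 9.81% of all measured genes were. The first count is near its share of all genes and the second is below it, but neither holds without the 8 X-linked libraries. There no kinesin was over 2-fold higher, where 5.65% of all measured genes were, and 2 of 34 were lower (Kif7 and Kif13a in place of Kif2b), where 3.69% were. Without Metaphase I 19 alone 1 kinesin was higher (Kif20a) against 4.98% of all measured genes, and 2 were lower (Kif2b and Kif21a) against 9.94%. The median log2 ratio of Metaphase I over Pachytene, with 1 CPM added to each group, was -0.07 for kinesins and -0.00 for all measured genes, whose quartiles were -0.40 and 0.38. Medians were -0.05 for spindle, -0.08 for transport and -0.09 for the cilia and other class.

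Cells of 1 group differed more among themselves than the groups did. The ranges of the groups overlapped for all 34 genes, and for 29 of them the medians of the groups were closer than the quartiles of either group on the log2(CPM + 1) scale. The exceptions were Kif7 and 4 genes (Kif1a, Kif5a, Kif5c and Kif13a) with a median of 0 in each group. The median cell was higher in Metaphase I for 18 kinesins, lower for 10 and equal for 6. Among the 13 spindle kinesins it was higher for 9, lower for 3 and equal for 1. These counts of overlaps and medians were not made for all measured genes. They therefore describe the members and do not show a trait of kinesins or of spindle kinesins. Rank correlations of the members with a library's total count ran from -0.43 (Kif2a) to 0.28 (Kif5b) over the 40 cells, with a median of -0.07.

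**Figure D2:**
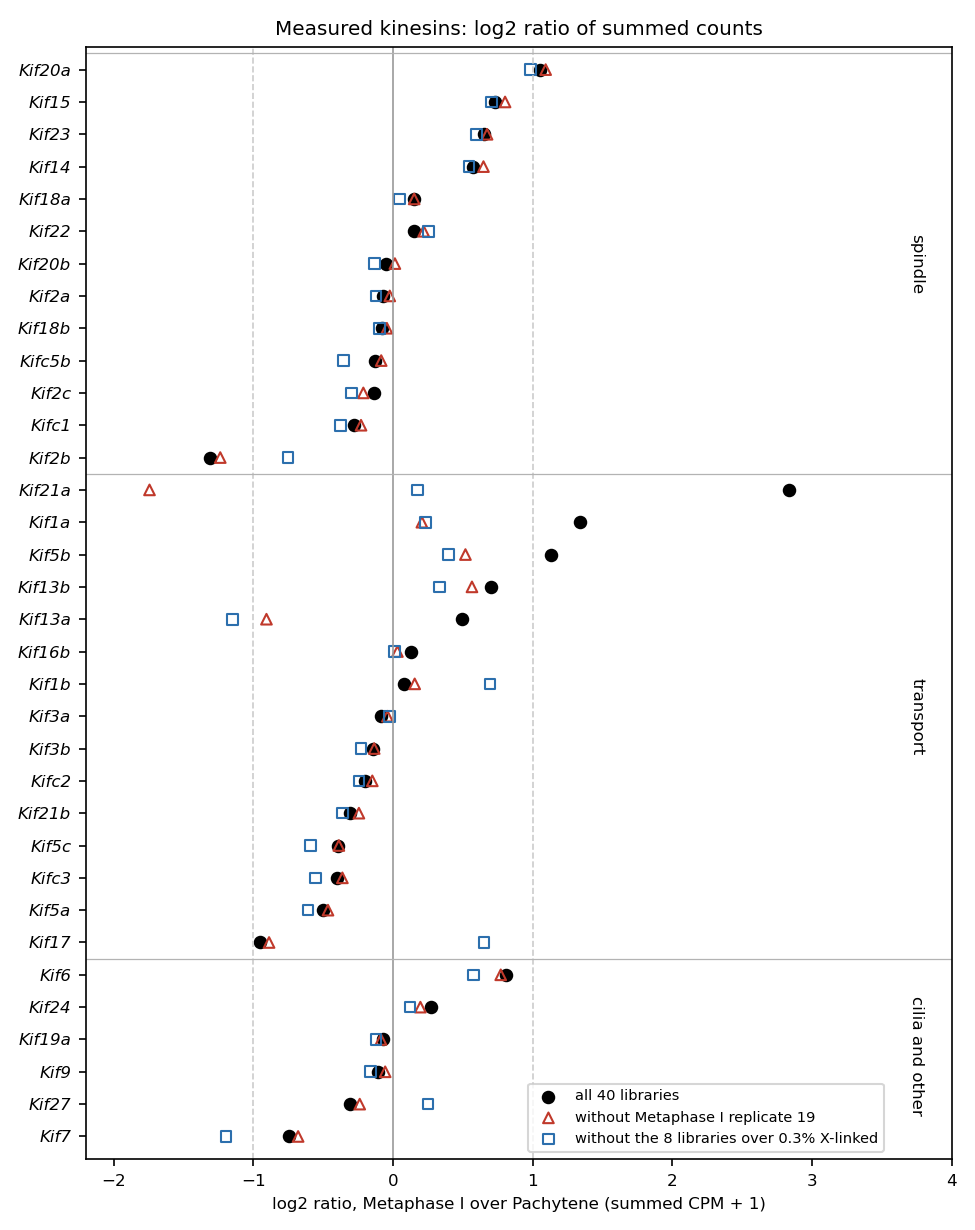
Log2 ratio of summed CPM + 1, Metaphase I over Pachytene, for the 34 measured kinesins in 3 classes: black dots use all 40 libraries, red triangles leave out Metaphase I replicate 19, and blue squares leave out the 8 libraries over 0.3% X-linked counts. Dashed lines mark 2-fold. Kif21a stands at 2.83 with all libraries and at -1.74 without Metaphase I 19, while most members stay within 2-fold in each version.

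Spindle kinesins summed to 715 CPM in Metaphase I and 755 CPM in Pachytene, a log2 ratio of -0.08, and the median cell had 814 CPM (302 to 1440) in Metaphase I and 710 CPM (383 to 1370) in Pachytene. Pooled counts and median cells thus point opposite ways, by less than the spread of either group. Without the 8 X-linked libraries the log2 ratio of the sum was 0.09. Metaphase I 19, the library with the high Sertoli marker sum, had the lowest spindle sum of its group at 302 CPM.

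Kif2a (chr13:106958996-107022126) codes for a kinesin-13 motor, a class that does not walk but removes tubulin from microtubule ends. It had 74.1, 250 and 439 CPM in the lowest, median and highest Metaphase I cell and 127, 218 and 606 CPM in Pachytene cells, a fold of 0.951 (counting interval 0.908 to 0.997). Its last 500 exon bases lie wholly over Dimt1 on the opposite strand, which had 342 counts beside the 7225 of Kif2a. The strand setting of the counting is not stated in the labels or file headers, so the pair's reads cannot be told apart.

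Kif2c (chr4:117159639-117182639), the related depolymerase MCAK that acts at centromeres, was as even. It was found in every cell, with 7.33, 60.6 and 147 CPM in the lowest, median and highest Metaphase I cell and 6.06, 54.3 and 203 CPM in Pachytene (fold 0.907, 0.824 to 0.998).

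Kif2b, the third kinesin-13 gene, has 1 exon (chr11:91575315-91577558) and behaved unlike its relatives. It had 0, 2.90 and 748 CPM in the lowest, median and highest Metaphase I cell, and 0, 4.41 and 981 CPM in Pachytene. A count was seen in 12 of 20 cells of each group. Summed counts were 936 in Metaphase I and 3018 in Pachytene, 2.50-fold lower in Metaphase I (2.32 to 2.70), a log2 ratio of -1.31.

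Nearly all of the Kif2b RNA was in the X-linked libraries with spermatid markers. Those 7 libraries held 96.1% of its counts and 18.0% of all counts in the table. Metaphase I replicates 3, 7 and 17 had 748, 262 and 258 CPM, and Pachytene replicates 2, 3, 7 and 19 had 758, 699, 670 and 981 CPM. No other Metaphase I cell had over 38.7 CPM, and no other Pachytene cell over 194 CPM (replicate 5, which also had the highest spermatid sum of the other libraries).

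The difference between the groups in Kif2b rested on single libraries. Metaphase I 3 held 74.3% of the Metaphase I counts and Pachytene 7 held 51.6% of the Pachytene counts. Its log2 ratio was -3.11 without Metaphase I 3, -0.47 without Pachytene 7 and -0.75 without the 8 X-linked libraries. Across 40 cells, Kif2b had a Spearman correlation of 0.90 with the sum of the 12 spermatid markers (Pearson 0.92), and 0.75 within Metaphase I and 0.96 within Pachytene. In the 32 libraries below the X-linked share it was 0.81. With Sycp3, a component of the synaptonemal complex that pairs homologues, Kif2b had a rank correlation of -0.68. The spermatid marker sum itself was 529 CPM in Metaphase I and 1511 CPM in Pachytene, with 12 of 12 markers detected, and its part in the Kif2b difference was not tested beyond these omissions.

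**Figure D3:**
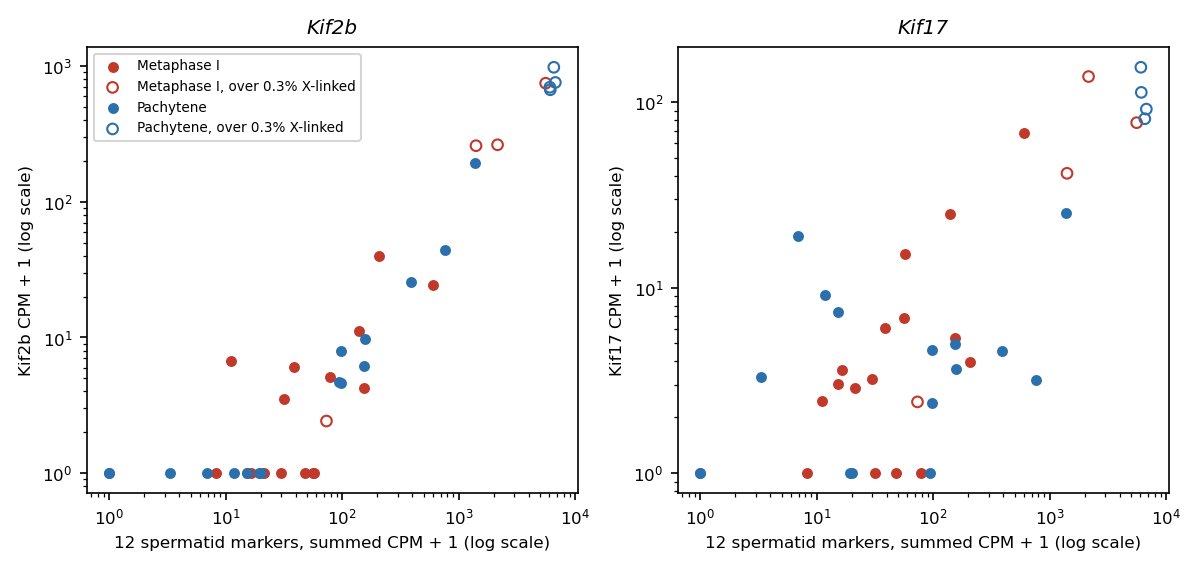
CPM + 1 of Kif2b (left) and Kif17 (right) in each cell against the summed CPM + 1 of 12 spermatid markers, both axes logarithmic; red marks Metaphase I, blue Pachytene, and open circles the libraries over 0.3% X-linked counts. The 7 open circles at the right hold 96.1% of Kif2b counts and 83.3% of Kif17 counts.

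Kif15 (chr9:122951046-123018733), a kinesin-12 and a tetrameric motor that helps to keep spindle poles apart, had 0, 53.3 and 726 CPM in the lowest, median and highest Metaphase I cell and 0, 49.9 and 101 CPM in Pachytene. The medians are alike, while the pooled fold was 1.67 (1.53 to 1.82), and Metaphase I 18, at 726 CPM, held 19.9% of the group's Kif15 counts. Without that library the log2 ratio was 0.45, against 0.73 with it. Metaphase I 18 also had the highest spindle sum of all cells, 1440 CPM.

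Kif23 (chr9:61915905-61946774) codes for MKLP1, the motor subunit of the centralspindlin complex of the central spindle. Its lowest, median and highest values were 2.53, 47.1 and 198 CPM in Metaphase I and 0, 33.1 and 183 CPM in Pachytene, with a fold of 1.58 (1.43 to 1.75). The log2 ratio of 0.65 lay between 0.52 and 0.80 when any 1 library was left out. Racgap1, the other centralspindlin subunit, had a log2 ratio of 0.32, with medians of 52.6 CPM in Metaphase I and 50.5 CPM in Pachytene.

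Kif20a (chr18:34624613-34633277), or MKLP2, which brings the chromosomal passenger complex to the central spindle, was the spindle kinesin with the highest ratio. It had 5.05, 15.7 and 86.3 CPM in the lowest, median and highest Metaphase I cell and 0, 8.64 and 23.9 CPM in Pachytene. All 20 Metaphase I cells and 16 Pachytene cells had a count. The fold was 2.20 (1.79 to 2.70) from 261 counts in Metaphase I and 153 in Pachytene, a log2 ratio of 1.05. This call sits at the threshold, as the log2 ratio fell below 1 without Metaphase I 13 (0.90), 18 (0.93) or 15 (0.99), without Pachytene 8, 7 or 9 (0.99 each), and without the 8 X-linked libraries (0.98). The last 500 exon bases of Kif20a lie over Cdc23 on the opposite strand, which had 223 counts, so the source of these reads is uncertain.

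Kif20b (chr19:34922361-34975745), needed for the last step of cytokinesis, had 11.4, 109 and 157 CPM in Metaphase I and 0.430, 101 and 261 CPM in Pachytene, and a fold of 0.963 (0.895 to 1.04). The lowest cells of each group were X-linked libraries, and all 8 held 4.30% of its counts. Kif18a (chr2:109280738-109341747), a kinesin-8 that limits chromosome movement so that chromosomes align, ran from 5.18 through a median of 45.6 to 99.3 CPM in Metaphase I and from 12.0 through 33.8 to 95.6 CPM in Pachytene. The fold was 1.12 (0.993 to 1.25), and neither gene separated the groups.

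Among the other spindle members, Kif14, another cytokinesis kinesin, had a median of 21.7 CPM in Metaphase I and 6.92 CPM in Pachytene (fold 1.53, 1.28 to 1.82). Kif22, a chromokinesin that pushes chromosome arms from the poles, had medians of 26.6 CPM in Metaphase I and 28.4 CPM in Pachytene. Kif18b, which shortens astral microtubules, had 7.37 CPM in Metaphase I and 5.68 CPM in Pachytene. Kifc1 is a minus-end motor that focuses spindle poles, and Kifc5b is a close relative, sharing 36.6% of its stretches of 50 bases with Kifc1. Kifc1 had 86 counts in 19 cells and Kifc5b 45 counts in 18 cells, and reads of the pair may have been split.

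Kif11, or Eg5, is the main motor that pushes spindle poles apart, and it was listed at 0 in all 40 libraries. A count of 0 allows up to 0.219 CPM in Metaphase I and 0.170 CPM in Pachytene if reads could be counted. Its row is the only kinesin row whose exons stand on a chromosome (19, 37376403 to 37421859) and again on a second sequence that is not a chromosome. Of 253 protein-coding genes of the table with exons in such a pair of places 69.2% were at 0, beside 27.2% of the 21281 on 1 chromosome alone, so the 0 cannot be read as a level of Kif11. Kif4, an X-linked chromokinesin, had 9 counts, in Metaphase I replicates 7 and 8 and Pachytene 20.

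**Figure D4:**
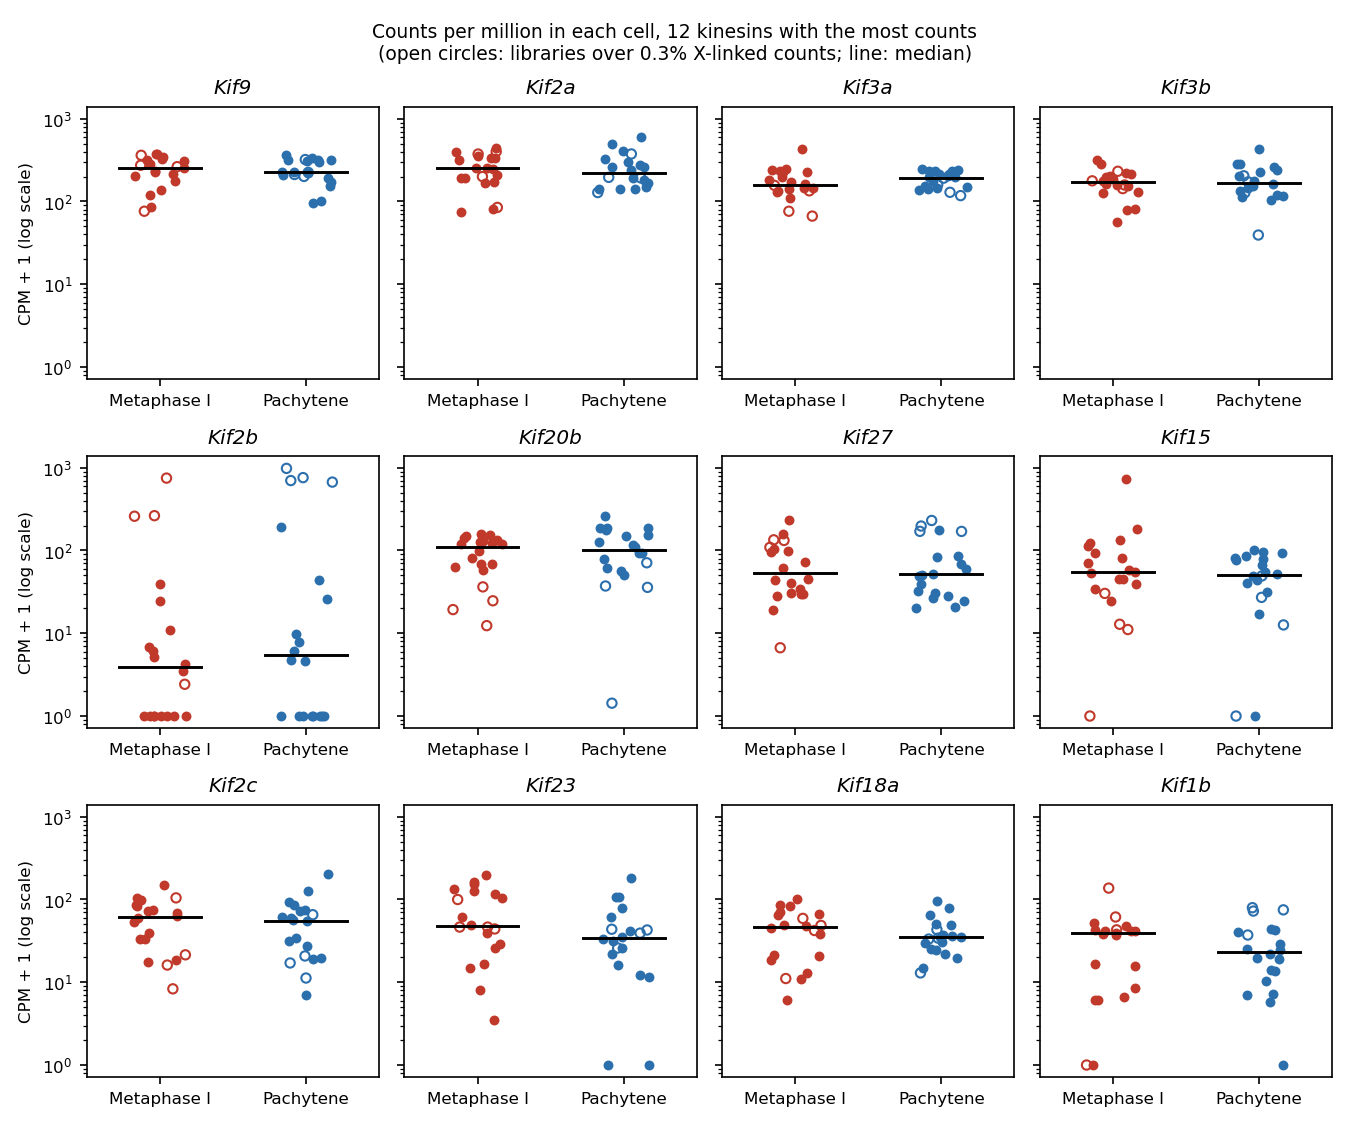
CPM + 1 on a log scale in each of the 40 cells for the 12 kinesins with the most counts, Metaphase I left (red) and Pachytene right (blue); black lines are medians and open circles are libraries over 0.3% X-linked counts. Kif9, Kif2a, Kif3a and Kif3b form overlapping bands with medians between 158 and 256 CPM, and high Kif2b cells are nearly all open circles.

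Transport kinesins summed to 534 CPM in Metaphase I and 504 CPM in Pachytene (log2 ratio 0.08), and the median cell had 517 CPM (301 to 1535) in Metaphase I and 492 CPM (370 to 891) in Pachytene. Metaphase I 19 was the highest cell, at 1535 CPM, and without it the log2 ratio of the sum was -0.07.

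Kif3a (chr11:53567379-53601967) and Kif3b (chr2:153291413-153333390) code for the motor subunits of heterotrimeric kinesin-2, which carries cargo out along the axoneme of cilia and the sperm tail. Kif3a had 65.6, 158 and 434 CPM in the lowest, median and highest Metaphase I cell and 117, 193 and 247 CPM in Pachytene, a fold of 0.943 (0.895 to 0.995). Kif3b had 55.0, 169 and 318 CPM in Metaphase I and 38.3, 167 and 430 CPM in Pachytene (fold 0.904, 0.856 to 0.955). Though they form 1 motor, their levels did not follow each other from cell to cell, with a rank correlation of -0.06 over 40 cells. Kifap3, the third subunit of this motor, had 81.0 CPM in the median Metaphase I cell and 72.7 CPM in Pachytene.

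Kif17 (chr4:138250435-138301967) is the homodimeric kinesin-2, which in mouse spermatids binds the transcription coactivator ACT. It had 0, 2.78 and 136 CPM in the lowest, median and highest Metaphase I cell and 0, 3.56 and 153 CPM in Pachytene. Like Kif2b it was high in the X-linked libraries, where the 7 with spermatid markers held 83.3% of its counts. Its rank correlation with the spermatid sum was 0.64 over 40 cells and 0.37 in the 32 libraries below the X-linked share. The pooled log2 ratio of -0.95 (186 counts in Metaphase I, 480 in Pachytene) was -1.49 without Metaphase I 3, -0.07 without Pachytene 7 and 0.65 without the 8 X-linked libraries, and it passed -1 in 14 of the 40 omissions of 1 library.

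Kif21a (chr15:90933276-91049948), which restrains microtubule growth at the cell cortex, had the highest ratio of all kinesins and took it from 1 cell. Its median was 0 CPM in each group, and the maximum was 788 CPM in Metaphase I (replicate 19) and 71.5 CPM in Pachytene (replicate 2). Metaphase I 19 held 98.2% of the 565 Metaphase I counts, beside 87 counts in Pachytene. The fold of 8.37 (6.67 to 10.6) with all libraries turned round without it, to a log2 ratio of -1.74, and was 0.17 without the 8 X-linked libraries, from 8 counts in Metaphase I and 7 in Pachytene. The other Metaphase I cells had at most 3.92 CPM of Kif21a.

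The same library was highest for Kif1a, Kif13a and Kif5b. Kif1a, an axonal kinesin-3, had 21 counts in Metaphase I, of which replicate 19 held 90.5%, and 0 in Pachytene. It was at least 6.71-fold higher in Metaphase I by the lower end of its counting interval, and 9.02-fold higher against a floor of 3 counts over the Pachytene group, but 2 counts remained without replicate 19. Kif13a, an endosome motor, had 78.6% of its 56 Metaphase I counts there, and 46 counts in Pachytene. Its log2 ratio was 0.50 with all libraries, -0.91 without Metaphase I 19 and -1.15 without the 8 X-linked libraries.

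Kif5b (chr18:6201002-6242174), the widely expressed heavy chain of conventional kinesin, ran from 0 through a median of 16.4 to 324 CPM in Metaphase I and from 0 through 8.99 to 89.1 CPM in Pachytene. The top 2 cells, Metaphase I 19 and 18, had 324 and 223 CPM, and no other Metaphase I cell had over 52.1 CPM. The fold was 2.25 (1.97 to 2.58) and the log2 ratio 1.13, which was 0.52 without Metaphase I 19, 0.97 without Metaphase I 18, 0.99 without Pachytene 7 and 0.40 without the 8 X-linked libraries. Those libraries, 19 and 18, had the highest Sertoli marker sums of all 40, 13530 and 211 CPM. The 12 Sertoli markers, 7 of them with 20 or more counts, summed to 0 to 13530 CPM per cell in Metaphase I and 0 to 16.1 CPM in Pachytene, and their part in the ratios of Kif21a, Kif1a, Kif13a and Kif5b was not tested beyond leaving libraries out.

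Kif1b (chr4:149176319-149307693), a kinesin-3 that carries mitochondria and vesicle precursors, had 0, 38.0 and 136 CPM in Metaphase I and 0, 22.2 and 78.6 CPM in Pachytene (fold 1.06, 0.930 to 1.21). X-linked libraries held 40.2% of its counts, and its log2 ratio was 0.69 without them, against 0.08 with all libraries. Kif13b, related to Kif13a, had medians of 15.8 CPM in Metaphase I and 8.40 CPM in Pachytene. Its log2 ratio was 0.70, and 0.33 without the X-linked libraries. Kif16b, which moves early endosomes, had 24.9 CPM in the median Metaphase I cell and 19.5 CPM in Pachytene. Kif21b, Kifc2 and Kifc3 had 212, 266 and 49 counts in all and log2 ratios of -0.31, -0.20 and -0.40.

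The neuronal heavy chains were near the limit of detection. Kif5c had 21 counts in Metaphase I, 66.7% of them in replicate 4, and 41 in Pachytene. Without that library its log2 ratio was -1.11, against -0.39 with it. Kif5a had 14 counts in Metaphase I and 33 in Pachytene, 54.5% of the Pachytene counts being in replicate 18, and its log2 ratio of -0.50 was 0.11 without that cell. Kif3c, Kif28, Kif26b and Kif26a had 16, 12, 15 and 3 counts in all, and Kif12 and Kif1c had 0 in all 40 cells, which like Kif11 allows 0.219 CPM in Metaphase I and 0.170 CPM in Pachytene. These, with Kif4 and Kif11, are the 8 members below 20 counts.

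The cilia and other class summed to 350 CPM in Metaphase I and 368 CPM in Pachytene (log2 ratio -0.07), with 391 CPM (173 to 640) in the median Metaphase I cell and 397 CPM (215 to 560) in Pachytene. Kif9 (chr9:110476958-110525179), which in mouse sperm works in the central apparatus of the tail, had the most counts of all kinesins. It had 75.3, 256 and 375 CPM in the lowest, median and highest Metaphase I cell, the lowest being replicate 19, and 94.5, 224 and 363 CPM in Pachytene (fold 0.928, 0.886 to 0.972). It was among the steadiest members, found in every cell and with its middle cells between 193 and 317 CPM in Metaphase I and between 198 and 317 CPM in Pachytene.

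Kif27 (chr13:58287502-58359122), needed for motile cilia in the mouse and a relative of the Hedgehog regulator Kif7, had 5.68, 52.1 and 232 CPM in Metaphase I and 19.4, 50.4 and 230 CPM in Pachytene. Its fold was 0.806 (0.739 to 0.878), a log2 ratio of -0.31. The 7 X-linked libraries with spermatid markers held 41.6% of its counts, and without all 8 the log2 ratio was 0.25. Kif7 itself had 59 counts in Metaphase I and 139 in Pachytene, a log2 ratio of -0.74, and -1.20 without the 8 libraries. Kif6, known from motile cilia, had medians of 24.8 CPM in Metaphase I and 12.7 CPM in Pachytene (fold 1.79, 1.56 to 2.05). Without the 8 libraries the Kif6 medians were 25.7 CPM in Metaphase I and 24.0 CPM in Pachytene (fold 1.51, 1.31 to 1.74). Kif24, a centriolar kinesin, had medians of 22.5 CPM in Metaphase I and 8.85 CPM in Pachytene, while its pooled fold was 1.22 (1.02 to 1.47). The log2 ratio of Kif24 was 0.27, and 0.12 without the 8 libraries. Its medians without them were 25.1 CPM in Metaphase I and 8.85 CPM in Pachytene. Kif19a, which limits cilium length, had medians of 0.991 CPM in Metaphase I and 2.24 CPM in Pachytene.

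Within the groups several of the 28 kinesins compared followed Ccnb1, the cyclin that drives entry into division. Those with the highest values are given first. Over 40 cells the rank correlation with Ccnb1 was 0.71 for Kif23, 0.69 for Kif2a, 0.66 for Kif18a, 0.65 for Kif18b and 0.65 for Kif9. For Kif23 it was 0.69 within Metaphase I and 0.65 within Pachytene, and for Kif2a 0.74 within Metaphase I and 0.66 within Pachytene. Kif18a had 0.68 in Metaphase I and 0.49 in Pachytene, Kif18b 0.68 in Metaphase I and 0.60 in Pachytene, and Kif9 0.76 in Metaphase I and 0.45 in Pachytene. The relation was thus present among cells of the same label. In the 32 libraries below the X-linked share it was 0.69 for Kif23 and 0.77 for Kif2a. Other spindle kinesins had lower values over 40 cells: Kif2c 0.44, Kif2b 0.22, Kif20b 0.20, Kif14 0.18, Kif22 0.14 and Kif20a 0.12. Correlations with Ccnb1 were not made for all measured genes, so the values do not show a trait of kinesins.

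Other members lay the other way. Kif15 had a rank correlation of 0.65 with Sycp3 and of -0.18 with Ccnb1, and Kif6 had 0.51 with Sycp3 and -0.31 with Ccnb1. Kif5b had the lowest value with Ccnb1, -0.44. In the 32 libraries the value of Kif15 with Sycp3 was 0.47 and that of Kif6 was 0.34. The cells share their group and its depth, so these values describe 40 libraries and have no p.

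**Figure D5:**
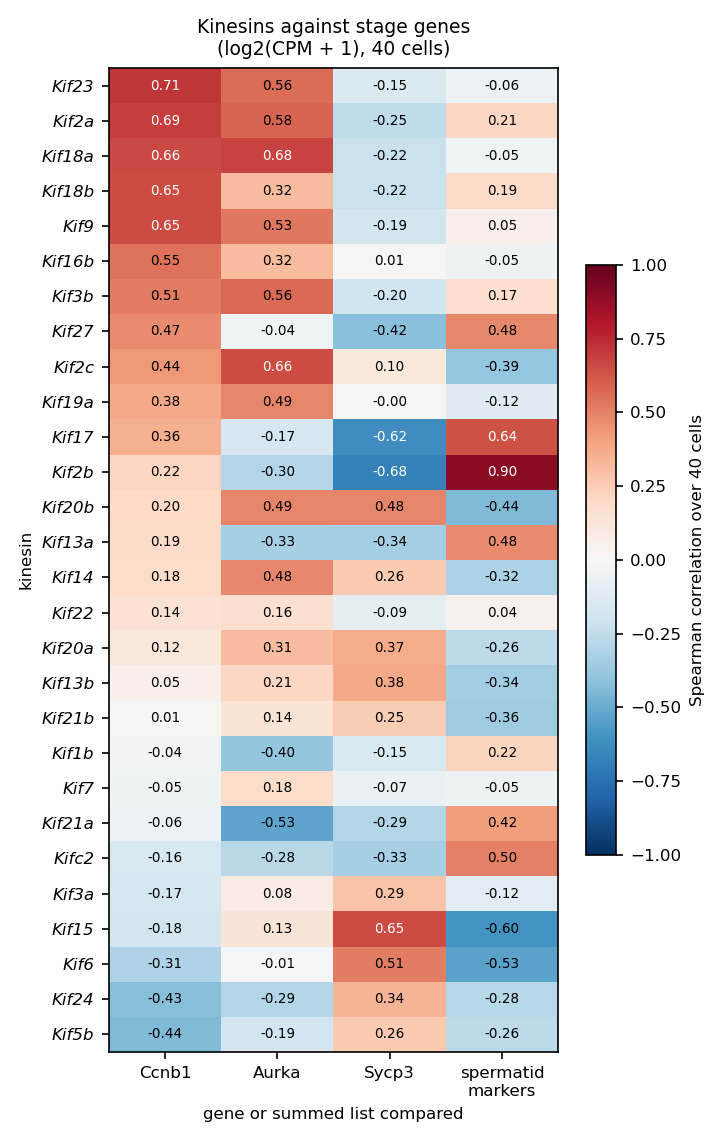
Spearman correlation over 40 cells of log2(CPM + 1) of the 28 kinesins with 100 or more counts (rows) with Ccnb1, Aurka, Sycp3 and the sum of 12 spermatid markers (columns), red for positive and blue for negative. Kif23, Kif2a and Kif18a head the Ccnb1 column at 0.71, 0.69 and 0.66, and Kif2b has 0.90 with the spermatid markers.

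Among pairs of kinesins with 100 or more counts, the closest was Kif2a with Kif3b (Spearman 0.72 over 40 cells, 0.84 within Metaphase I and 0.58 within Pachytene). Kif9 had 0.65 with Kif18a and 0.65 with Kif2a, and Kif14 had 0.62 with Kif20a. The lowest pair was Kif2b with Kif15, at -0.58. Pairs of 2 spindle kinesins had a median of 0.19 and 43 of 55 were above 0, while 55 transport pairs had a median of -0.02. The 121 pairs of a spindle and a transport kinesin had a median of 0.02. For the 66 pairs of a spindle kinesin and one of the cilia and other class it was 0.05. Pairs of all measured genes were not compared, so no background stands beside these values. All pairs share the cells and their depth.

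Outside the family, the genes whose levels followed the spindle kinesin sum most closely over 40 cells were Nr6a1 (Spearman 0.83), a germ cell nuclear receptor, and Fsip2 (0.81), a protein of the sperm fibrous sheath. Galm, Anapc10, Polk, Tent5c, Iqub, Ttll6, Hook1 and Dnajb4 followed, down to 0.75. The median over 8860 genes compared was -0.08. Mitochondrial genes, ribosomal protein genes, unnamed gene models and pseudogenes (by symbol) were not among those compared. For Anapc10, a subunit of the anaphase-promoting complex, the value was 0.93 within Pachytene and 0.61 within Metaphase I. The spindle sum itself moved with the spermatid markers, with a rank correlation of 0.46 over 40 cells, 0.55 within Pachytene and 0.22 in the 32 libraries below the X-linked share. It was 868 to 1370 CPM in the 7 X-linked libraries with spermatid markers, against a median of 645 CPM in the 32. In those 32 the value was 0.80 for Nr6a1 and 0.76 for Fsip2, which then stood 13th and 23rd among the genes compared, and the 10 genes lay between 0.68 (Dnajb4) and 0.81 (Hook1). With Kif2b taken out of the sum, the values over 40 cells were 0.41 for Nr6a1 and 0.44 for Fsip2. The 10 genes then lay between 0.29 (Anapc10) and 0.59 (Hook1).

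Most genes that work with kinesins also differed by less than 2-fold. Of 20 listed cargo adaptors, light chains, spindle partners and motors with other symbols, 17 had 20 or more counts, 0 were over 2-fold higher and 1 was lower in Metaphase I, where 8.49% of all measured genes were higher and 9.81% lower. Their median log2 ratio was 0.07. The 1 was Stard9, a kinesin without a Kif symbol, with 149 counts in Metaphase I and 428 in Pachytene (log2 ratio -1.09). Metaphase I 3 held 42.3% of the Metaphase I counts and Pachytene 7 held 57.5% of the Pachytene counts, and both are X-linked libraries. Without the 8 X-linked libraries its log2 ratio was 0.07, and 0 of the 17 were over 2-fold either way. Cenpe, the kinetochore kinesin that likewise has another symbol, had medians of 109 CPM in Metaphase I and 103 CPM in Pachytene (log2 ratio 0.18). Trak2, an adaptor for mitochondria, had 0.70 and Klc1, a kinesin light chain, 0.55.

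For the opposite motor, all 21 dynein and dynactin genes listed were measured, with 0 over 2-fold higher and 1 lower, beside the same 8.49% and 9.81% of all measured genes, and a median log2 ratio of 0.07. That gene was Dynll2, a dynein light chain, with a log2 ratio of -1.32, and 68.6% of its Metaphase I counts were in replicate 3 and 47.6% of its Pachytene counts in replicate 7. Without the 8 X-linked libraries Dynll2 had a log2 ratio of -0.53, and Dynlrb1, another light chain, was the 1 gene of the 21 over 2-fold higher, at 1.02, with none lower. With all libraries Dynlrb1 had 0.84, and Ndel1, a dynein regulator, 0.70.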

How the data were processed

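Per the labels' protocols, single spermatocytes went through a modified STRT-seq method that keeps 3' ends, with 20 and then 4 PCR cycles and paired reads of 150 bp. The submitters' processing notes name STAR, UMI-tools and featureCounts, on GRCm38. In the deposited table the values are raw counts (whole numbers for each gene), with exon coordinates and exon length per the file headers. The strand setting, and if reads or molecules were counted, are not stated there. Each of the 40 value columns bears the name of 1 library, and the table holds no cell barcodes to compare.

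From these counts CPM per cell and CPM of counts summed over a group were computed (Python 3.11.15, pandas 2.3.3, scipy 1.17.1), with a pseudocount of 1 CPM for log2 ratios and a minimum of 20 counts. Folds have an exact conditional binomial interval at 95%. The 40 cells come from no named animal, so no test was made. Correlations used log2(CPM + 1) and genes with 100 or more counts. The search for genes that follow the spindle sum left out mitochondrial genes, ribosomal protein genes, unnamed gene models and pseudogenes (by symbol). No doublet caller was run on 40 cells. The code was tested on simulated counts. Members and lists were chosen with earlier results of these data known. Given in full were the 12 kinesins with the most counts, those over 2-fold either way, and those with over 50% of a group's counts in 1 library. The rest were given by ranges, with examples by role. Motif shares stand beside all RefSeq promoters.

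Alternatives were mean and median CPM over cells, TMM scaling (edgeR 4.0.16) and median-of-ratios scaling, library totals that leave out ribosomal protein and mitochondrial genes, a pseudocount of 10 CPM, minimums of 1 and 100 counts, thinning to 340000 counts per cell, and omission of libraries. For the genes that follow the spindle sum, leaving out the X-linked libraries or Kif2b was chosen after seeing the data.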

Additional observations from a re-analysis of the deposited data

How the results depend on the processing

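The number of kinesins over 2-fold higher in Metaphase I, 4 with pooled counts (8.49% of all measured genes), was 2 with the median CPM over cells (3.52%), 1 with a pseudocount of 10 CPM (0.884%), 0 without the 8 libraries over 0.3% X-linked counts (5.65%) and 0 when Metaphase I 13 was left out as well (4.41%). The number over 2-fold lower, 1 with pooled counts (9.81%), was 2 with mean CPM (7.86%), median CPM (5.35%), TMM scaling (9.37%), thinning (10.5%), and both omissions of X-linked libraries (3.69%, and 3.28% without Metaphase I 13). The genes changed as well as their number. With median CPM the higher ones were Kif14 and Kif24 and the lower ones Kif21b and Kif7, so no pooled call remained. With a pseudocount of 10 CPM the higher one was Kif21a. Kifc3 joined Kif2b as lower with mean CPM and TMM scaling, and Kif5a joined it with thinning. The spindle median log2 ratio, -0.05, was 0.14 with mean CPM, 0.16 with median CPM, 0.12 with TMM and 0.15 with a minimum of 100 counts. The summed spindle log2 ratio, -0.08, was -0.029 with mean CPM, 0.23 with median CPM, 0.086 without the X-linked libraries and 0.13 without Metaphase I 13 too. The summed transport log2 ratio, 0.08, was -0.016 with median CPM, -0.036 without the X-linked libraries and 0.0016 without Metaphase I 13 too. The cause was not tested.

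With each library left out in turn, 1 to 4 kinesins were higher, where 4.98% to 9.63% of all measured genes were, and 0 to 3 lower, where 3.84% to 14.7% were. The kinesin median ran from -0.09 to 0.01, the spindle median from -0.095 to 0.13, the transport median from -0.15 to 0.10, the spindle sum from -0.14 to -0.00086 and the transport sum from -0.071 to 0.13. The higher count was 1 without Metaphase I 19 (4.98% of all measured genes), and 2 without Metaphase I 18 (7.5%) or Pachytene 7 (8.56%). The lower count was 0 without Pachytene 7 (3.84%) and 3 without Metaphase I 4 (9.52%), where Kif17 and Kif5c joined Kif2b. Kif17 joined it in 14 omissions in all. Kif21a turned to -1.74 without Metaphase I 19, and reached 3.52 without Pachytene 2. A named member counted as moved if its log2 ratio shifted by more than the distance from the middle to the end of its counting interval. That distance covers counting error only, not the variation among cells. Kif1a, at 0 in Pachytene, has no upper end to its interval and could not count as moved. Its log2 ratio was 1.34 with all libraries and 0.23 without the X-linked libraries. Median-of-ratios scaling and totals without mitochondrial and ribosomal protein genes moved none of the 20 named members. The other settings moved some: median CPM moved 15, thinning 11, mean CPM 8, TMM scaling 7 and a pseudocount of 10 CPM 4. Leaving out the X-linked libraries moved 9, and 11 when Metaphase I 13 was left out as well. No paired analysis was possible because replicate numbers name cells and nothing pairs them across groups. Depth limits the rare members: Kif5c, Kifc3, Kif5a and Kifc5b had 45 to 62 counts in all, and the counting intervals of their folds span 1.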
